A study of Mus musculus with 23 samples.

Results

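Long noncoding RNAs were compared between hippocampal synaptosomes and the neurites that hippocampal neurons send into the perfusion channel of microfluidic chambers. The comparison used 11 of the 23 libraries of the series, namely the 3 total RNA libraries of synaptosomes and the 8 total RNA libraries of unstimulated chambers, and left out every library treated with KCl. Of the 26691 genes in the deposited lncRNA tables, 7346 carried one of 5 annotations and were taken as long noncoding: 3960 lincRNAs, 2343 antisense genes, 755 processed transcripts, 263 sense intronic genes and 25 sense overlapping genes. Their raw counts were rescaled in each library to CPM, counts per 1000000 of the sum over these 7346 genes, so a level below is a share of the long noncoding counts and not an amount per cell or per synapse.

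Each synaptosome library came from a pool of 20 bilateral hippocampi of wild-type male C57B/6J mice at 3 month of age, and the pools are called synaptosome pools 1, 2 and 3 below. Each chamber library came from the cut perfusion channels of 2 pooled chambers with hippocampal neurons of CD1 embryos, cultured to DIV14 from E17, and the libraries are called C1, C2, C3, C9, C11, Ctrl3, Ctrl4 and sc3. No library of either group was treated or stimulated. Synaptosome libraries were made with the Illumina TruSeq total RNA kit and chamber libraries with the SMARTer Stranded Pico v2 kit, so group, strain, age, sex as far as given, tissue or culture, RNA extraction and kit divide the libraries in the same way and cannot be told apart. Synaptosomes are prepared by homogenizing and fractionating whole tissue, whereas the cut channel holds neurites beside synapses. The sources used here do not say whether the chamber libraries came from separate cultures, so the p-values for them measure the spread between these libraries only.

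Long noncoding RNAs are transcripts without a long reading frame, and many of them work in the nucleus where they are made. Malat1 is kept in nuclear speckles, Neat1 is the scaffold of nuclear paraspeckles, Meg3 is transcribed from the maternal copy of an imprinted locus and is abundant in neurons, Sox2ot is transcribed across the gene of the transcription factor Sox2, and Pvt1 is a neighbour of the growth gene Myc. Antisense genes lie across a coding gene on the other strand, and reads from both can be told apart only where counting uses the strand. A preparation of synaptic endings should hold few nuclei, which is why nuclear RNAs are often read as a measure of cell bodies in it.

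Most synaptosomal counts came from Gm42418, a lincRNA gene on chr17:39846958-39848788 (mm10, plus strand, 1 exon of 1831 bases). The RefSeq annotation of GRCm38.p6, the assembly behind mm10, places Rn18s-rs5, an 18S ribosomal RNA related sequence, on chr17:39846354-39848202, and 1245 bases of Gm42418 (68.0%) lie inside it. A second lincRNA gene, Gm26917 on chr17:39843013-39846341, ends 12 bases before the same interval. The sequences below, read from the RefSeq genome on the plus strand 5′ to 3′, are shown because they place both genes against that ribosomal interval, whose bases are in capitals. They are the end of Gm26917 into the interval (chr17:39846312-39846403), the first bases of Gm42418 (chr17:39846958-39847017) and the point inside Gm42418 where the interval ends (chr17:39848163-39848242).
End of Gm26917: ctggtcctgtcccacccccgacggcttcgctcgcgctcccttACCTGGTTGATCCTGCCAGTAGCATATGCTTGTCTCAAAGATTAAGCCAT
Start of Gm42418: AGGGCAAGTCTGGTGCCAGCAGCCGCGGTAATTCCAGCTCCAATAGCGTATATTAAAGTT
End of the interval: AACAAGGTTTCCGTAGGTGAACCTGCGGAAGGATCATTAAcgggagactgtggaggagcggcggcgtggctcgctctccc

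Gm42418 had 4816281, 5612310 and 4860100 counts in synaptosome pools 1, 2 and 3. These counts were 97.4% to 98.2% of all long noncoding counts of a pool (97.8% ± 0.421, SD, n = 3). In all 8 chamber libraries the gene was listed at 0, in the lncRNA tables as well as in the total RNA tables. Gm26917, its neighbour upstream, ran the other way, with 72, 69 and 73 counts in the pools and 2453 to 36099 counts in the chamber libraries (7248 to 58576 CPM, median 21013, n = 8).

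The synaptosome libraries held 4942432 to 5750538 long noncoding counts, and the chamber libraries 164803 to 947623. Without Gm42418, the pools were left with 126151, 138228 and 87106 counts, fewer than any chamber library. A further pair of genes led what remained. Gm26561, a lincRNA of 1413 exon bases whose gene spans 515207 bases on chr17:70878078-71393284, had 35168, 37737 and 19261 counts in the lncRNA tables, which was 22.1% to 27.9% of the rest, against 0.155% to 0.285% in chambers. In the total RNA tables the same gene was listed at 0 in all 3 pools. Gm15564, annotated antisense on chr16:35966752-35983230, had 38761, 47998 and 5917 counts, or 6.79% to 34.7% of the rest, with pool 3 far below the others, and 0 to 42 counts in chambers.

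A stretch of Gm15564 occurs letter for letter in transcripts of the mitochondrial leucyl-tRNA synthetase gene Lars2, so that a read inside it has no unique place. It is printed from chr16:35981733-35981808 on the minus strand, with its 52 shared bases in capitals.
Gm15564: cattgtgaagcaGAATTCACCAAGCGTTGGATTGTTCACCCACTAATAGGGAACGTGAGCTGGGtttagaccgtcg
Lars2 had 188228, 247935 and 94280 counts in the total RNA tables of pools 1, 2 and 3, and was lowest in pool 3 as Gm15564 was. In chambers it had 59 to 5987 counts. How reads that match both genes were counted is not given in the sources used here. Neither gene was compared with ribosomal RNA sequences, and the part of ribosomal reads in their counts was not tested.

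**Figure D1:**
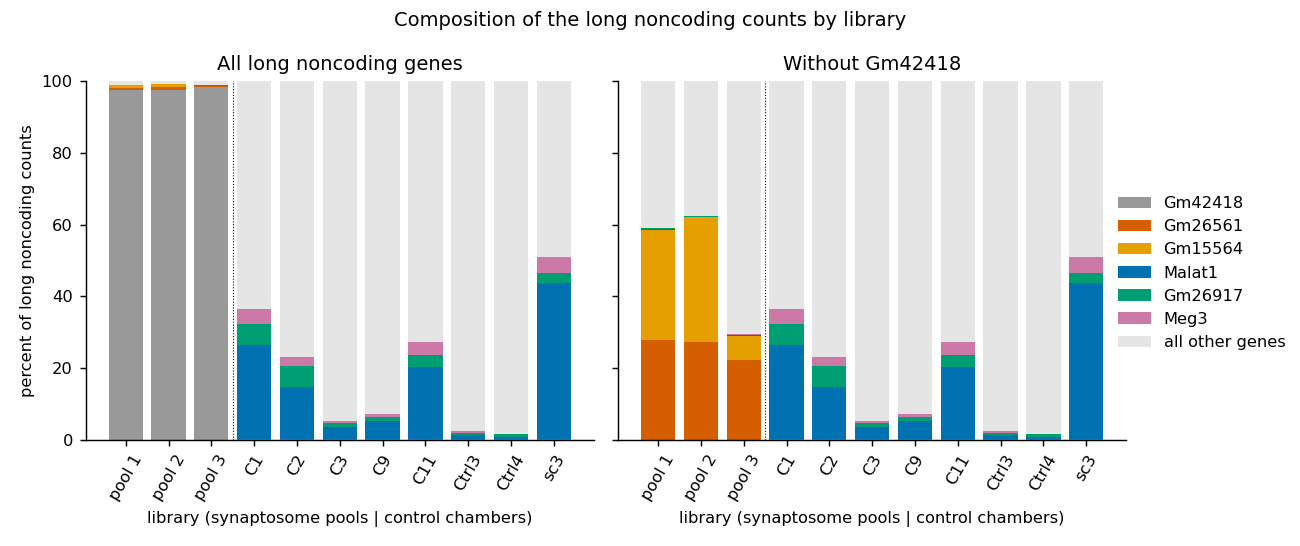
Composition of the long noncoding counts of each library, as a percent of all 7346 genes (left) and of the counts left without Gm42418 (right). Gm42418 fills 97.4% to 98.2% of each synaptosome pool and none of any chamber library, where the share of Malat1 varies from 0.596% to 43.3%.

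In the comparison as defined, over all long noncoding counts, 4003 genes were tested with edgeR's quasi-likelihood test and called where the Benjamini-Hochberg adjusted p did not exceed 0.05 and the log2 fold change was at least 1 in size. Of these, 58 genes (1.45%) were higher in synaptosomes and 3843 genes (96.0%) were lower, with a median log2 fold change of -7.50. With Gm42418 at nearly the whole of each pool, a gene with the same counts in both groups of libraries would be lower in synaptosomes on this scale. A further 3 scalings were therefore read beside this one, all chosen after the data had been seen. Without Gm42418, 617 of 4338 genes (14.2%) were higher and 2539 (58.5%) lower, with a median of -4.58. With the counts that the total RNA tables give for the same genes, without Gm42418, Gm26561 and Gm15564, 253 of 3534 genes (7.16%) were higher and 24 (0.679%) lower, with a median of -3.88. With those tables scaled to the counts of nuclear protein-coding genes, 69 of 3468 genes (1.99%) were higher and 247 (7.12%) lower, with a median of -5.91.

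The split between higher and lower genes thus depended on the table and on the scaling. For the total RNA tables without the 3 leading genes it also depended on single libraries. Without sc3, 327 genes were higher and 290 lower, and without pool 1, 2 or 3, 194, 192 and 178 genes were higher and 7, 6 and 7 lower. The last scaling, the lncRNA tables without the 3 leading genes, had 722 genes higher and 1891 lower. Genes are described below as higher or lower in all 5 scalings where each of them made the same call.

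**Figure D2:**
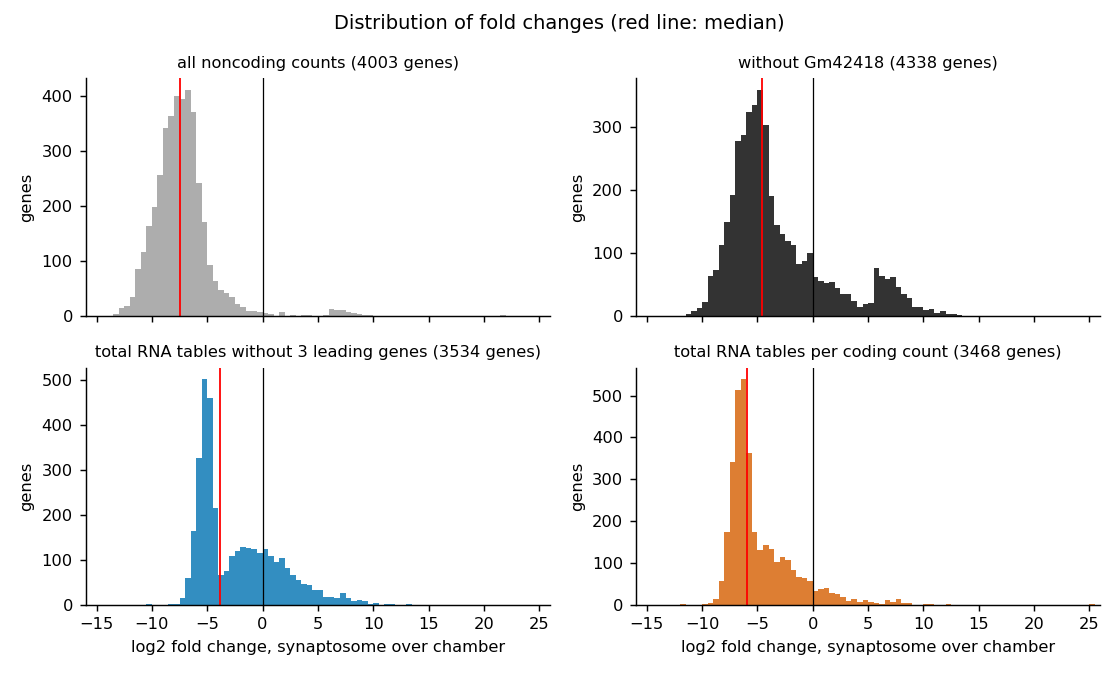
Distribution of log2 fold changes (synaptosome over chamber, horizontal axis) over the genes tested under 4 scalings, with the number of genes on the vertical axis and the median as a red line. The median moves from -7.50 over all noncoding counts to -3.88 in the total RNA tables without the 3 leading genes, and every median lies below 0.

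Malat1 was lower in synaptosomes under all 5 scalings. It had 339, 271 and 278 counts in pools 1, 2 and 3, and 2017 to 390314 counts in chambers. Without Gm42418, its level was 2613 ± 619 CPM in synaptosomes (SD, n = 3) and 5960 to 433360 CPM in chambers (median 96813, n = 8), and the groups did not overlap. The mean was 54.5 times higher in chambers (log2 fold change -5.77 ± 1.33, SE, adjusted p = 0.00169, edgeR). In coding CPM, counts of the total RNA tables per 1000000 counts of nuclear protein-coding genes, it was 178, 179 and 235 at the lowest, the median and the highest pool, and 3522 to 47769 in chambers, a log2 fold change of -6.86 ± 0.8602 (adjusted p = 3.99e-05). The chamber libraries themselves varied widely, with Ctrl4 the lowest and sc3 the highest of them in the share of counts.

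Meg3 and Neat1 had the same order. Meg3 had 69, 33 and 85 counts in the pools and 430 to 40185 in chambers, and without Gm42418 its log2 fold change was -5.15 ± 1.15 (adjusted p = 0.00133). Neat1 had 6, 5 and 6 counts in the pools and 73 to 8054 in chambers. Its fold change without Gm42418 was -4.86 ± 1.45 (adjusted p = 0.00866), with sc3 at 8942 CPM and the other chamber libraries at 216 to 670. In coding CPM sc3 did not stand out for Neat1, with a range of 81.4 to 173 over all 8 chambers against 3.28 to 4.16 in the pools (log2 fold change -5.19 ± 0.874, adjusted p = 0.00148). Both genes were called lower under all 5 scalings. With TMM factors or DESeq2 in place of the plain library size the call of Neat1 was lost (-5.60, adjusted p = 0.0731, and -1.09, adjusted p = 0.0974), whereas that of Meg3 held.

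Sox2ot and Pvt1 were called lower under the 3 scalings of the lncRNA tables, but not in 2 of the 3 scalings of the total RNA tables. In the lncRNA tables Sox2ot had 35, 37 and 38 counts in the pools and 666 to 5297 in chambers, and Pvt1 had 55, 69 and 65 against 529 to 4022. Without Gm42418 their log2 fold changes were -3.92 ± 0.519 (adjusted p = 5.06e-05) and -2.77 ± 0.464 (adjusted p = 0.000215). In the total RNA tables Sox2ot had 17, 24 and 7 counts in the pools and 23 to 1263 in chambers, and Pvt1 had 26, 45 and 40 against 27 to 785. Over all noncoding counts of those tables both were lower (-8.07, adjusted p = 5.01e-07, and -6.33, adjusted p = 7.04e-05). Without the 3 leading genes, the log2 fold change was -0.30 ± 0.850 for Sox2ot (adjusted p = 0.780) and 1.44 ± 0.698 for Pvt1 (adjusted p = 0.172), so that Pvt1 changed sign without passing the test. In coding CPM both genes had overlapping groups, with 4.51 to 15.7 in the pools and 13.4 to 148 in chambers for Sox2ot, and 18.0 to 29.5 against 16.8 to 89.9 for Pvt1.

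Ratios between the 5 markers within a library do not depend on Gm42418 or on the scaling. Of the 10 pairs in the lncRNA tables, none differed between the groups after adjustment over the 10 (exact two-sided permutation tests over all splits of 3 and 8 libraries, which allow no p below 0.00606, so that a single ratio that separates the groups cannot pass over 10). The ratio of Sox2ot to Pvt1 came closest, at 0.536 to 0.636 in the pools and 0.932 to 1.498 in chambers (p = 0.00606, adjusted p = 0.0606), and 5 ratios of Malat1, Meg3 or Neat1 to a longer gene differed when counted in the total RNA tables. Malat1 over Pvt1, for example, was 6.02 to 13.04 in the pools and 39.2 to 1774 in chambers there (adjusted p = 0.0202), whereas in the lncRNA tables it was 3.93 to 6.16 against 1.39 to 152 (adjusted p = 0.582). Malat1 over Meg3 overlapped between the groups in both tables, at 3.27 to 8.21 in the pools and 1.81 to 9.71 in chambers in the lncRNA tables.

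**Figure D3:**
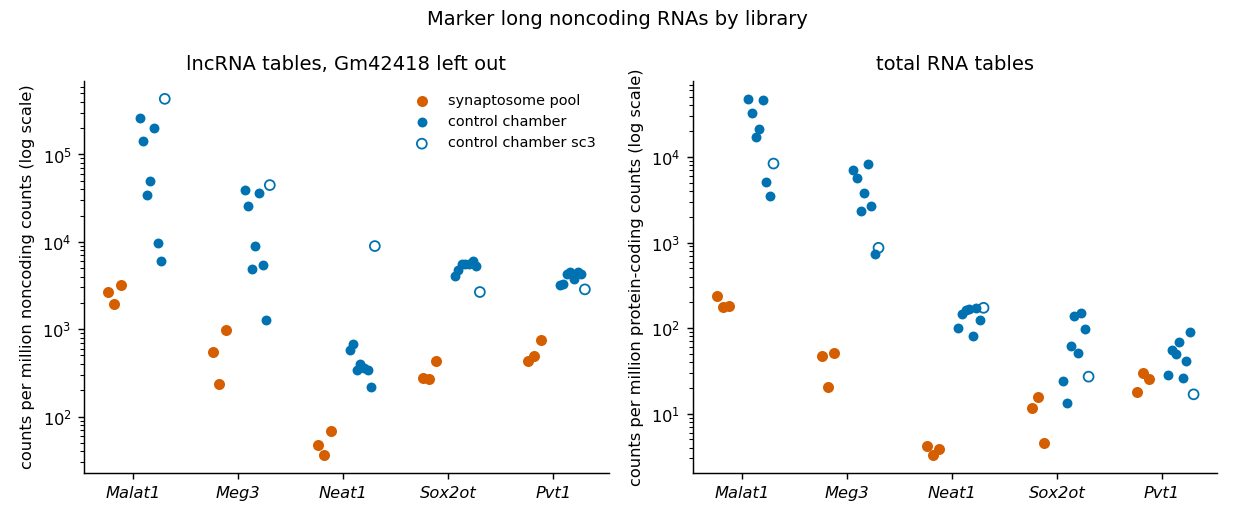
Levels of the 5 marker genes in each library on log axes, in CPM without Gm42418 (left) and in coding CPM of the total RNA tables (right), with sc3 as an open circle. The pools lie below all chamber libraries for every gene on the left, whereas Sox2ot and Pvt1 overlap on the right, where Pvt1 is at 18.0 to 29.5 in the pools and 16.8 to 89.9 in chambers.

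The 2 tables count the same genes and libraries in different ways, and the difference followed the length of the gene with its introns. Among 1486 genes under 2 kb, the ratio of lncRNA to total RNA table counts was 1.25 to 1.35 in the pools, and 0.6249 to 0.818 in chambers. Among 229 genes of 100 to 300 kb, the ratio was 5.82 to 6.39 in the pools and 18.99 to 28.3 in 7 chamber libraries, and 2.18 in sc3. Genes over 100 kb accordingly took 15.3% to 15.9% of the counts of the pools and 24.2% to 38.2% of those of 7 chamber libraries in the lncRNA tables, without the 3 leading genes, against 11.4% in sc3.

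Malat1, Meg3 and Neat1, of 6983, 30726 and 20771 bases, were counted nearly alike in both tables, whereas Sox2ot spans 578350 bases on chr3:34104270-34682619 and Pvt1 340111 bases on chr15:62037986-62378096. In C3, Sox2ot had 5297 counts in the lncRNA table and 122 in the total RNA table. In pool 1 it had 35 and 17. The features and the strand setting behind either table are not given in the sources used here, and the part of introns in these counts was not tested.

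**Figure D4:**
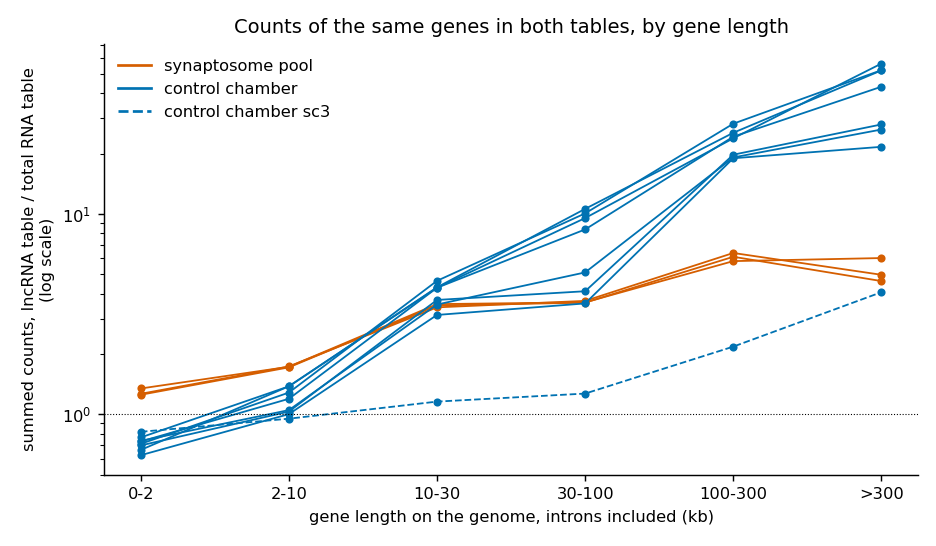
Ratio of the summed counts of the same genes in the lncRNA and total RNA tables (log axis), by gene length with introns in kb, with 1 line for each library and the 3 leading genes left out. From the shortest to the 100 to 300 kb genes the ratio climbs from 0.6249 to 0.818 up to 18.99 to 28.3 in 7 chamber libraries, and less steeply in the pools and in sc3.

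Overlap with other genes also divided the tables. Of 4048 long noncoding genes with at least 50 counts over the chamber libraries in the total RNA tables, 1177 were listed at 0 in the chamber lncRNA table, and 1163 of these (98.8%) overlap another gene, against 46.6% of the 2871 that were counted. In synaptosomes only 10 of 256 such genes were listed at 0. Kcnq1ot1, an imprinted antisense RNA, and Xist, which silences an X chromosome in female cells, were picked as examples after their values were seen. Kcnq1ot1 had 17, 4 and 18 counts in the pools in both tables, and in chambers 0 in the lncRNA table and 319 to 3848 in the total RNA table. Without Gm42418 it was therefore called higher in synaptosomes (log2 fold change 6.93 ± 0.959, adjusted p = 0.000397), and in coding CPM lower (-6.02 ± 0.902, adjusted p = 0.000386). Xist was listed at 0 in all 11 libraries in the lncRNA tables, and in the total RNA tables at 0 in all 3 pools and at 95 to 1737 counts in chambers. The mice of the pools were male, and the sex of the embryos is not given in the sources used here.

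Under all 5 scalings, 25 genes were higher in synaptosomes, of 2219 genes that all 5 fits tested. The total RNA tables over all noncoding counts, with Gm42418 kept, are not among the 5 and called 4 of 4328 genes (0.0924%) higher. Of the 25, only Gm26723 (log2 fold change 8.72, adjusted p = 0.000509, edgeR) and Gm26778 (7.24, adjusted p = 0.00195) were called there. The others were not called or not tested. Gm13872 (1.25, adjusted p = 0.424, edgeR), Grin1os (0.21, adjusted p = 0.900) and Gm14703 (0.27, adjusted p = 0.852) were among those not called. Gm26954, Rapgef4os2 and Chn1os1 were below 0 there (adjusted p 0.697 to 0.776). Each of the 25 has an exon opposite an exon of a coding gene, against 26.9% of the 2219. Of the 25, 14 (56.0%) are annotated antisense, against 21.7% of the 2219. The 2219 were not matched for the group that counted them, so neither share measures an enrichment in synaptosomes. Of 256 long noncoding genes with at least 50 counts over the pools in the total RNA tables, 236 (92.2%) overlap another gene. Among the 25, 23 were listed at 0 in every chamber library of the lncRNA table. So were 277 genes with at least 30 counts over the pools, of which 273 overlap another gene and 199 (71.8%) are antisense. The part of the counting of overlaps in these zeros was not tested, and the values of the total RNA tables are given beside them. Of the 25, 9 were at 0 in every chamber library in the total RNA tables.

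Gm13872 lies opposite Slc1a2, the main glutamate transporter of astrocytes, on chr2:102737907-102746760. It had 1445, 1170 and 1173 counts in the pools and 0 in chambers in the lncRNA tables, and 743, 640 and 637 against 0 to 41 in the total RNA tables. In coding CPM its log2 fold change was 6.58 ± 1.07 (adjusted p = 0.000923).

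Grin1os lies opposite Grin1, which encodes the obligate subunit of NMDA receptors, on chr2:25291220-25298925. It had 520, 483 and 699 counts in the pools and 0 in chambers, and 375, 363 and 480 against 0 to 66 in the total RNA tables (log2 fold change per coding count 5.46 ± 0.984, adjusted p = 0.00298). Gm14703, opposite the synaptic vesicle protein gene Syp, was 1 of the 2 genes of the 25 that were counted in the chamber lncRNA tables, with 775, 730 and 1349 counts in the pools and 0 to 39 in chambers (log2 fold change 2.80 ± 0.902 over all noncoding counts, adjusted p = 0.00696). Without pool 3 that call was lost (log2 fold change 2.42, adjusted p = 0.0531, edgeR). Gm26954, opposite Pclo of the presynaptic active zone, had 727, 735 and 1184 counts against 0, and 164, 157 and 199 against 0 to 46 in the total RNA tables.

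Rapgef4os2, opposite the cAMP sensor gene Rapgef4, and Chn1os1, opposite the Rac regulator gene Chn1, had 328, 397 and 414 counts and 142, 159 and 123 counts in the pools, and 0 in chambers in the lncRNA tables. In the total RNA tables chambers had 1 to 36 counts of Rapgef4os2 and 0 to 44 of Chn1os1.

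The coding genes themselves were higher in the pools too, in coding CPM. Slc1a2 was at 12486 to 17988 in the pools and 209 to 1289 in chambers, Grin1 at 624 to 883 against 82.2 to 453, and Syp at 978 to 1480 against 93.3 to 892. Relative to the coding gene, Grin1os had 356 counts for each 1000 counts of Grin1 in the pools and 13.9 in the summed chambers, or 29.9 without sc3. Gm13872 had 28.6 for each 1000 of Slc1a2 against 3.33, or 3.99 without sc3. Reads of the coding strand cannot be told from antisense reads in these tables, and their part in the counts was not tested.

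A further 3 antisense genes that were higher in the lncRNA tables were not called in coding CPM, and only Pcsk2os2 of them was called in the total RNA tables without the 3 leading genes (adjusted p = 0.0112, edgeR). Pcsk2os2, opposite the prohormone convertase gene Pcsk2, had 156, 173 and 235 counts in the pools and 0 in chambers in the lncRNA tables, but 43, 48 and 72 against 0 to 83 in the total RNA tables (log2 fold change per coding count 1.45 ± 1.29, adjusted p = 0.308). Sorbs2os had 102, 114 and 149 counts in the lncRNA tables and 2, 3 and 7 in the total RNA tables, where chambers had 0 to 55. Rapgef4os1, which spans 51194 bases, had 84, 121 and 107 counts in the lncRNA tables and none in the pools in the total RNA tables.

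**Figure D5:**
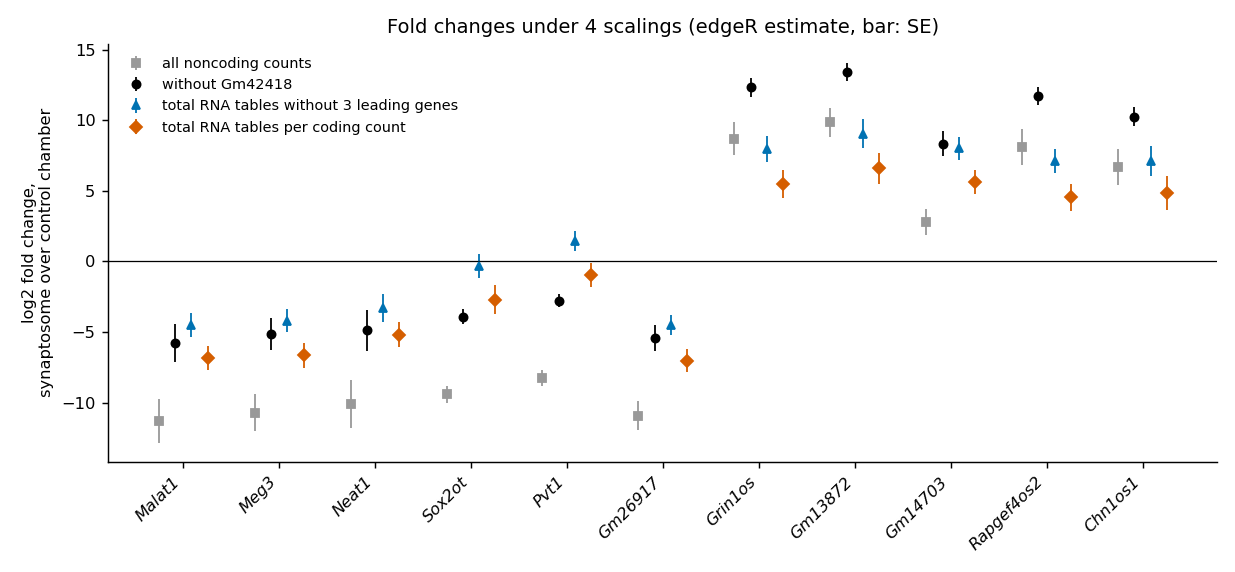
Log2 fold changes (synaptosome over chamber, edgeR estimate with SE) of the 5 markers, Gm26917 and 5 genes opposite coding genes under 4 scalings. Malat1, Meg3, Neat1 and Gm26917 lie below 0 and the 5 genes on the right above 0 under each, whereas Pvt1 runs from -8.27 to 1.44.

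Under all 5 scalings, 17 genes were lower in synaptosomes, among them Malat1, Meg3, Neat1 and Gm26917, and 1 of the 17 has an exon opposite a coding exon. Of the 17, 10 were at 0 in every pool in the lncRNA tables. Gm26917 had a log2 fold change of -5.44 ± 0.911 without Gm42418 (adjusted p = 0.000215) and -7.03 ± 0.823 per coding count (adjusted p = 1.86e-05). Gm26870, a lincRNA on chr9:3000282-3038313, had 2, 0 and 0 counts in the pools and 262 to 3837 in chambers. Muc19, a mucin gene whose long noncoding annotation is that of a processed transcript, had 0 counts in all 3 pools and 16 to 687 in chambers. Without Gm42418 it was at least 55.4-fold below the chamber mean, taking 3 counts over the pools together as the limit of what 0 allows. That mean was 473 CPM, with sc3 at 17.8 and the other chamber libraries at 218 to 725, so the bound does not hold for sc3 alone.

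Further genes with very large differences in the lncRNA tables were very long ones that the total RNA tables hardly count. Gm14643 (605062 bases, chrX), D5Ertd615e (415232 bases, chr5), 6330411D24Rik (476399 bases, chr4), Gm32647 (666481 bases, chr7), 2610307P16Rik (425587 bases, chr13) and Gm12648 (336013 bases, chr4) had at most 16 counts in any pool and at least 114 in every chamber library, with log2 fold changes of -13.37, -12.99, -12.72, -11.09, -13.18 and -13.04 over all noncoding counts. In the total RNA tables they had 0 counts in every pool and at most 75 in any chamber library, so that the fitted values there depend on the prior count. Over all noncoding counts of those tables each of the 6 was called lower, at -9.35 to -6.80. Without the 3 leading genes none of the 5 that were tested was called (-6.28 to -4.70, adjusted p 0.100 to 0.212). In coding CPM 2610307P16Rik was called lower (-7.82, adjusted p = 0.0397) and the other 4 were not (-7.43 to -6.18, adjusted p 0.0513 to 0.0717).

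Among the 10 genes highest in synaptosomes were 3 whose direction turned with the scaling or the table. Gm26668, a lincRNA gene that spans 212567 bases, had 1231, 1135 and 1381 counts in the pools and 85 to 646 in chambers. It was called lower over all noncoding counts (log2 fold change -1.29, adjusted p = 0.0239, a call lost without pool 1 or pool 2 at adjusted p = 0.0732 and 0.0906) and higher without Gm42418 (4.25, adjusted p = 1.23e-05). Its counts in the total RNA tables were 2, 7 and 4 against 0 to 72.

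Gm26703, annotated antisense, had 842, 830 and 947 counts in the pools and 2 to 342 in chambers, and 5, 13 and 6 against 0 to 272 in the total RNA tables. It was not called over all noncoding counts (-0.17, adjusted p = 0.865) and higher without Gm42418 (5.37, adjusted p = 0.000231). D030047H15Rik, opposite Ttyh1, had 965, 837 and 1113 counts against 0 to 7 in the lncRNA tables, and 55, 34 and 42 against 5 to 117 in the total RNA tables. Its log2 fold change was 6.77 (adjusted p = 2.34e-05) in the former and -3.94 (adjusted p = 0.0376) in the latter, both over all noncoding counts.

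The listed long noncoding genes were read by role. Over all noncoding counts every tested member of 8 of the 9 lists was called lower, as 96.0% of all genes were, so the scaling without Gm42418 is given here, where 14.2% of all genes were higher and 58.5% lower with a median of -4.58. In the total RNA tables without the 3 leading genes 7.16% of all genes were higher and 0.679% lower, and in coding CPM 1.99% and 7.12%. Without Gm42418, 1 of 15 tested genes listed as neuronal or nuclear RNAs was higher and 7 lower, with a median of -2.03. In the total RNA tables without the 3 leading genes 1 of 17 was higher and 5 lower. In coding CPM none of 17 was higher and 9 were lower. Ftx, a gene of the X inactivation centre, and Firre, an X-linked RNA that stays on chromatin, were among the genes lower without Gm42418. Ftx had 7, 12 and 4 counts in the pools and 101 to 1416 in chambers (log2 fold change -3.47 ± 0.659, adjusted p = 0.000458), and Firre 7, 7 and 5 against 135 to 1052 (-3.97 ± 0.574, adjusted p = 8.76e-05).

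1700020I14Rik, on the same list, was not lower once Gm42418 was left out. It had 829, 719 and 739 counts in the pools and 61 to 12864 in chambers, with overlapping groups (log2 fold change 1.14 ± 0.918, adjusted p = 0.257), and in the total RNA tables without the 3 leading genes it was higher (2.64 ± 0.621, adjusted p = 0.00568).

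Tug1, an RNA of nuclei and cytoplasm on the same list, and Gas5, a host of small nucleolar RNAs, were added after their values were seen. Tug1 had 174, 196 and 178 counts in the pools, 35 to 345 in 7 chamber libraries and 8823 in sc3. Its log2 fold change was -5.38 over all noncoding counts (adjusted p = 0.00477), 0.13 without Gm42418 (adjusted p = 0.926) and 0.24 in coding CPM (adjusted p = 0.746). Gas5 had 166, 183 and 196 counts in the pools, 0 to 235 in 7 chamber libraries and 4562 in sc3. Its values were -4.52 (adjusted p = 0.0215, lost without pool 2 or pool 3 at 0.0601 and 0.0732), 1.01 (adjusted p = 0.487) and 1.12 (adjusted p = 0.267). With DESeq2 both were called higher (3.59, adjusted p = 0.000292, and 3.83, adjusted p = 0.00894).

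Of the 9 lists, host genes of small nucleolar RNAs had the median nearest to 0 without Gm42418. Of 14 tested, 3 were lower and none higher without Gm42418, with a median of -0.80, and in the total RNA tables without the 3 leading genes 1 of 14 was higher and none lower, with a median of 0.93 where that of all genes was -3.88 and that of the other antisense RNAs, -0.60, was nearer to 0. Snhg14, the imprinted host across Ube3a, had 242, 284 and 249 counts in the pools and 514 to 3119 in chambers (log2 fold change without Gm42418 -0.46 ± 0.499, adjusted p = 0.392). Rian, the imprinted host beside Meg3, had 181, 221 and 237 against 246 to 3438 (-0.64 ± 0.683, adjusted p = 0.391). Snhg17 was a lower one, with 0, 1 and 2 counts against 34 to 300 (-4.03 ± 0.941, adjusted p = 0.00179).

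Of 10 tested RNAs of imprinted loci, 1 was higher and 3 lower, with a median of -1.73. The locus of Meg3, Rian and Mirg on chromosome 12 was split, since Meg3 and Mirg, a microRNA host with 4, 7 and 11 counts in the pools and 79 to 488 in chambers, were lower (Mirg -2.81 ± 0.659, adjusted p = 0.00187) and Rian did not pass the test. The difference between these genes was not tested. Of 12 microRNA hosts, 10 were lower and none higher, with a median of -3.18. In the total RNA tables without the 3 leading genes none of 13 was called either way, where 7.16% of all genes were higher and 0.679% lower. In coding CPM 5 of 13 were lower and none higher, beside 7.12% and 1.99% of all genes. Mir99ahg, the host of miR-99a, let-7c and miR-125b, had 31, 25 and 17 counts against 537 to 3520 (without Gm42418 -4.05 ± 0.500, adjusted p = 3.54e-05).

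Of 22 long noncoding genes at loci of transcription factors, 15 were lower and 2 higher, beside 58.5% and 14.2% of all genes, and their median of -3.59 was less negative than that of all genes. In the total RNA tables without the 3 leading genes 1 of 22 was higher and none lower, beside 7.16% and 0.679% of all genes. In coding CPM none of 20 was higher and 3 were lower, beside 1.99% and 7.12% of all genes. Otx2os1 had 0, 4 and 2 counts in the pools and 118 to 1135 in chambers, and Tbx3os1 0, 0 and 1 against 66 to 931. Of the genes linked to growth or p53, 10 of 12 were lower, with a median of -5.00, and Lncpint among them had 45, 33 and 50 counts against 504 to 2676 (-2.66 ± 0.572, adjusted p = 0.00103), a call that the total RNA tables did not give (1.40 ± 0.847, adjusted p = 0.203).

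Of 28 Platr transcripts, named from a screen in embryonic stem cells, that were counted in any library, 4 were counted in the pools. Fewer genes of any kind were counted in a pool, 2255 to 2364 of the 7346, than in a chamber library, 3123 to 4462. Platr16 had 0, 1 and 0 counts in the pools and 70 to 1335 in chambers, and Platr21 0 in every pool and 73 to 876 in chambers. Of 23 tested, 18 were lower and none higher, with a median of -5.57. In the total RNA tables without the 3 leading genes none of 16 was called either way, where 7.16% of all genes were higher and 0.679% lower. In coding CPM 2 of 16 were lower and none higher, beside 7.12% and 1.99% of all genes. Without Gm42418, the list of other antisense RNAs of neuronal genes had 6 of 26 members higher and 14 lower, with a median of -2.15, beside 14.2% and 58.5% of all genes. In the total RNA tables without the 3 leading genes 3 of 26 were higher and none lower, and in coding CPM none of 25 was higher and 2 were lower. The list of vessel, blood and connective tissue RNAs had 2 of 3 lower without Gm42418.

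The make-up of the long noncoding counts was compared by 12 measures for each library. lincRNAs took 98.6% ± 0.285 of the counts in synaptosomes (SD, n = 3) and 70.3% ± 5.15 in chambers (SD, n = 8), and antisense genes 1.19% ± 0.302 against 14.3% ± 3.68, with no overlap of the groups (exact two-sided permutation test, adjusted p = 0.00808 for both). Gm42418 was the leading gene of every pool, and Malat1 that of every chamber library but Ctrl4, which Gm26917 led. Without the leading gene of each library, lincRNAs took 39.4% ± 1.79 in synaptosomes and 65.2% ± 2.08 in chambers, and antisense genes 52.5% ± 4.34 against 16.5% ± 1.63 (adjusted p = 0.00808 for both), so that both differences turned round. These shares are of the lncRNA tables, which list many genes that overlap another at 0 in chambers. They were not taken without the leading genes in the total RNA tables, and the part of such overlaps in them was not tested. Single genes hold much of these shares in pools 1, 2 and 3. Gm15564 alone took 30.7%, 34.7% and 6.79% on the antisense side, and Gm26561 27.9%, 27.3% and 22.1% on the lincRNA side.

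Processed transcripts did not turn round, at 0.172% ± 0.0212 against 14.7% ± 1.51 with all genes and 8.01% ± 2.56 against 17.5% ± 3.13 without the leading gene. The numbers of genes seen also kept their order. At an equal depth of 164803 counts, 551 to 646 genes would be seen in a pool and 2424 to 4269 in a chamber library. At 87106 counts without the leading gene of each library, 1998 to 2363 genes would be seen against 2392 to 4048 (exact permutation test, adjusted p = 0.00808). Gm26561 and Gm15564 stay in these counts, so the depth left for the other genes was not equal between the groups.

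Predicted names (Gm numbers, Rik clones and clone accessions) took 99.9% ± 0.0158 of the counts in the pools and 75.6% ± 18.3 in chambers (exact permutation test, adjusted p = 0.0424). Without the leading genes the shares were 93.7% ± 2.04 and 87.0% ± 7.79 (adjusted p = 0.185). The hosts of small nucleolar RNAs took 0.0147% against 0.862% (adjusted p = 0.0397) with all genes, and 0.681% ± 0.194 against 1.16% ± 1.02 without the leading ones (adjusted p = 0.521), where the groups overlapped.

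The levels of coding genes of other cell types are given beside these values. In coding CPM, 14 astrocyte markers summed to 28871 to 36142 in the pools and 1562 to 22513 in chambers, 12 microglia markers to 2875 to 3905 against 32.6 to 443, and 13 oligodendrocyte markers to 3765 to 5308 against 568 to 2717. Of the 12 microglia markers, all were above 0 in every pool and 2 in every chamber library. The 13 neuron markers summed to 16110 to 22284 in the pools and 1701 to 11161 in chambers, and all 13 were above 0 in every library. The 15 markers of vessels and blood summed to 743 to 2005 in the pools and 41.6 to 962 in chambers, with overlapping groups. None of these sums was tested. Fewer cells of a type and less RNA per cell cannot be told apart in such libraries, and the part of these cells in the long noncoding differences was not tested. Nuclear protein-coding genes took 9.15% to 9.80% of all counts of the pools, 68.6% to 96.7% of those of the chambers.

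One chamber library stood apart. The library sc3 held 48281227 counts in the total RNA table, against 722529 to 4800303 in the other 7, and its coding share was the highest. In coding CPM its long noncoding counts summed to 17677 without the 3 leading genes, against 84043 to 100970 in the other chambers and 14030 to 16096 in the pools. Over all noncoding counts the numbers of calls hardly depended on it, with 57 genes higher and 3820 lower without sc3.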

How the data were processed

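Per the labels and the study's methods, the authors used bcl2fastq 2.20.2 for base calls, STAR 2.5.2b for alignment (mm10) and featureCounts 1.5.1 for counting. The deposited tables hold raw counts beside normalized ones, in a total RNA table and a lncRNA table for each preparation, and the raw counts were used. A further 34 per-sample columns (normalized counts and KCl libraries) were not used. Genes were annotated by GENCODE vM21, and sequences were read from the RefSeq genome. Counts were tested with edgeR 4.0.16 (quasi-likelihood test, filterByExpr, library size as the sum over the long noncoding genes, no further factor, SE from the fold change and F). Shares were tested by exact permutation, adjusted over 12 measures, and marker ratios over 10. Alternatives were TMM, DESeq2 1.42.0, other filters, tables, controls, scalings and each library left out. On simulated data without Gm42418 (4005 genes), with the spread these libraries show, edgeR found 0 of 50 genes that were changed 2-fold, 3 changed 4-fold, 10 changed 8-fold and 16 changed 16-fold, with 0 false calls, and DESeq2 (3962 genes) found 0, 8, 23 and 30, with 15 false calls. The members, the gene lists and the rule for named genes were chosen with earlier results of these data known. The rule takes the 5 markers, long noncoding RNAs the study names, the 10 highest of each group, called genes of largest change whose groups do not overlap (12 with an established name and 5 of any name, each way) and up to 6 members of each list by adjusted p with called members that go against their list. It takes 77 genes, of which 42 are described. Kcnq1ot1, Xist, Tug1 and Gas5 lie outside it and were chosen after their values were seen. The result for 1 long noncoding gene is not reported here. Counting error alone would understate the spread, since reads without molecular identifiers are not independent molecules.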

Additional observations from a re-analysis of the deposited data

Results flagged for a closer look

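Values of the named genes and shares were searched for a library far from the rest of its group among the 8 chamber libraries, with Dixon's test at the 95% level, which marks about 1 group in 20 by chance. Of 58 groups tested, 11 had such a library, and it was sc3 in each. In CPM over all noncoding counts, sc3 was high for Neat1 (8942, others 216 to 670), 1700020I14Rik (14283, others 180 to 3623), Ftx (1572, others 338 to 765), Tug1 (9796, others 103 to 570), Gas5 (5065, others 0 to 498) and D030047H15Rik (7.77, others 0 to 2.95). It was low for Gm26870 (291, others 3214 to 4754), Platr16 (77.7, others 1019 to 1503), Tbx3os1 (73.3, others 631 to 1115) and Otx2os1 (162, others 716 to 1198), and for the share of Platr transcripts (0.0594%, others 0.340% to 0.510%). These 11 values come from 1 library and are not independent of each other. sc3 was also the library with the most counts and with the lncRNA and total RNA tables closest to each other, at a ratio of 1.09 without the 3 leading genes against 1.95 to 5.68 in the other chambers; the part of either in these values was not tested.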

How the results depend on the processing

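Of the genes tested over all noncoding counts, 1.45% were higher and 96.0% lower. These shares were 6.60% and 42.5% with TMM, 10.5% and 40.3% with DESeq2, 14.2% and 58.5% without Gm42418, 16.4% and 43.0% without the 3 leading genes, 7.16% and 0.679% in the total RNA tables without these, and 22.9% and 21.9% (70 and 67 of 306) without predicted names. The share of higher genes was 9.72% with no filter beyond 1 count, 16.3% (258 of 1581) with at least 10 counts in every library of a group, 0.0924% (4 of 4328) in the total RNA tables, 0.965% over all genes of the lncRNA tables, 7.35% with the 3 letter-titled controls alone and 0.548% without antisense, sense overlapping and sense intronic genes, and the share of lower genes 7.12% per coding count. Of the calls, 86.6% were lower with TMM and 98.5% over all noncoding counts. Without the leading gene of each library the differences in share were -25.8 percentage points for lincRNAs and 36.0 for antisense genes, both turned round, and 6.74 for predicted names, -0.479 for small nucleolar RNA hosts and -3.27 for imprinted loci, which no longer passed the test. With the 3 letter-titled controls no exact p can fall below 0.10, so none of the 12 measures could pass. Their differences were 29.3 points for lincRNAs, -13.2 for antisense genes, -15.4 for processed transcripts, -0.636 for sense overlapping and -0.0680 for sense intronic genes, 25.9 for predicted names, 82.7 for the leading gene, 75.7 for the leading 10, -0.828 for small nucleolar RNA hosts, -2.20 for imprinted loci, -0.320 for Platr transcripts and -2640 genes at equal depth. With each library left out, the differences of 3 measures ran from 18.99 to 26.6 points for predicted names, -0.932 to -0.712 for small nucleolar RNA hosts and -3.20 to -2.47 for imprinted loci, and lost the test without any 1 of the pools and without C2 or C11, as did the first 2 without C1.

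Log2 fold changes of named genes changed sign as follows. For 1700020I14Rik, Rian, Snhg14, Gm26668, Gm26703 and Gas5 they were 0.69, 0.47, 0.53, 5.51, 6.19 and 0.22 with TMM, 3.37, 0.78, 0.83, 5.84, 6.50 and 3.83 with DESeq2, and 2.17, 0.36, 0.57, 5.24, 6.37 and 2.02 without the 3 leading genes. Tug1 was at 3.59 with DESeq2 and 1.16 without the 3 leading genes. Without Gm42418 1700020I14Rik was at 1.14, Gm26668 at 4.25, Gm26703 at 5.37, Tug1 at 0.13 and Gas5 at 1.01, and without predicted names Rian was at 1.15, Snhg14 at 1.16, Tug1 at 2.99 and Gas5 at 3.85. In the total RNA tables Gm26561 was at -7.05, D030047H15Rik at -3.94, Gm26954 at -0.58, Rapgef4os2 at -0.65, Chn1os1 at -0.59, Pcsk2os2 at -3.67, Sorbs2os at -7.29 and Rapgef4os1 at -7.74. In those tables without the 3 leading genes Pvt1 was at 1.44, Sorbs2os at -0.0028, Rapgef4os1 at -4.70, 1700020I14Rik at 2.64, Rian at 0.76, Snhg14 at 1.92, Lncpint at 1.40, Gm26668 at 0.63, Tug1 at 1.75 and Gas5 at 2.78, and per coding count Sorbs2os was at -2.57, Rapgef4os1 at -6.23, 1700020I14Rik at 0.51, Tug1 at 0.24 and Gas5 at 1.12. Without a change of sign, the calls of Neat1, Mirg, Lncpint and Snhg17 were lost with TMM (adjusted p 0.0533 to 0.0919) and with DESeq2 (0.0650 to 0.0974), those of Ftx (0.0642) and Tug1 (0.756) with TMM, and that of Pvt1 with DESeq2, where its log2 fold change was -0.80. The log2 ratios that passed the test in the total RNA tables only were -5.55 for Malat1 to Pvt1, -3.83 for Meg3 to Sox2ot, -5.51 for Meg3 to Pvt1, -4.39 for Neat1 to Pvt1 and, turned round, -2.71 for Neat1 to Sox2ot. The cause of these changes was not tested. No paired analysis was possible because the replicate numbers of the libraries are accession order and the groups share no animal or culture. Calls in the pools rest on 87106 to 138228 counts outside Gm42418.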
